A study of Mus musculus with 12 samples.

Results

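The 10 genes described here encode proteins of male germ cells that bind RNA, control its translation or form the ends of mRNAs. They are Dazl, Boll, Ythdc2, Meioc, Ybx2, Ybx3, Papolb, Cpeb1, Celf1 and Cstf2t. They were taken as the entries of both count tables that carried one of these symbols. All 10 were found among the 51826 entries of the sperm table and among the 23502 entries of the testis table, and all 10 passed the filter on low counts in both. The study compared 4 groups of 3 RNA-seq libraries, described in its labels as biological replicates. Xap5 (listed as Fam50a) and Xap5l (listed as Fam50b) encode related nuclear proteins studied as transcription factors of spermatogenesis. The sperm came from the cauda epididymis of adult mice at postnatal day 56 (P56), either wild type (WT) or Xap5l KO (XAP5L KO in the labels). The Xap5l KO is a deletion in the whole animal, made with CRISPR/Cas9. The other libraries came from P16 testes, either WT or Xap5 cKO (XAP5 cKO in the labels), in which floxed Xap5 was deleted by a Cre recombinase knocked into the Stra8 locus. Stra8-driven Cre acts in male germ cells from the spermatogonial stages on, so the somatic cells of these testes kept Xap5. The floxed Xap5 and the Xap5l KO mice were made on the C57BL/6J background, and that of the Stra8-GFPCre mice was not given in the sources used here. The labels call the controls WT, the study's text describes the controls of the cKO males as Xap5 fl/Y, and how many animals went into a library was not given in the sources used here.

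Germ cells transcribe many mRNAs well before their proteins are needed, because transcription stops when the spermatid nucleus condenses. RNA-binding proteins therefore decide which transcripts are stored, given longer poly(A) tails, translated or destroyed. DAZL and BOLL are translational regulators of the DAZ family, the MEIOC and YTHDC2 proteins form a complex that moves germ cells into meiosis, and YBX2 and YBX3 package stored mRNA. PAPOLB is a testis poly(A) polymerase, CSTF2T a testis cleavage factor, CPEB1 a regulator of cytoplasmic polyadenylation and CELF1 a widely expressed regulator of splicing and decay.

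Library totals ranged from 38881197 to 52308452 counts in sperm and from 32251198 to 36759054 in testes. Levels are given as CPM, counts scaled to library size by edgeR's TMM method. Fam50b had 574, 440 and 419 counts across the WT sperm libraries, against 18, 23 and 8 across the Xap5l KO libraries. Fam50a was also lower in Xap5l KO sperm, with a log2 fold change of -0.76 (SE 0.201, adjusted p = 0.0393, edgeR). It had 14.9 to 16.8 CPM in WT and 8.45 to 11.1 CPM in Xap5l KO sperm. In testes, which were taken whole, Fam50a had a log2 fold change of only -0.33 (SE 0.126, adjusted p = 0.0495), with 22.2 to 27.5 CPM in WT and 18.1 to 20.9 CPM in Xap5 cKO libraries. Fam50b had 532, 539 and 197 counts across WT testes and 6, 0 and 7 across Xap5 cKO testes. In bulk samples, fewer cells of a type and less RNA per cell cannot be told apart. The testis libraries differed in their marker genes. The 12 pachytene spermatocyte markers summed to 1112 to 2141 CPM in WT and to 162 to 214 CPM in Xap5 cKO testes, with WT replicate 3 the lowest WT library, and 10 of the 12 were downregulated. WT replicate 3 was also closer to the Xap5 cKO libraries over all genes (Pearson's r of log2 CPM from 0.9278 to 0.9331) than the other WT testes were (0.8965 to 0.9031). Fold changes of Boll, Meioc, Ybx2, Ybx3, Papolb and Cpeb1 are also given without it, while ratios and the wider list of genes are given with all libraries. Markers of leptotene and zygotene spermatocytes summed to 2343 to 2745 CPM against 1102 to 1486 CPM, and 10 of 12 were downregulated. The 10 Sertoli cell markers summed to 2124 to 2206 CPM against 3393 to 3549 CPM. The 10 round spermatid markers summed to 18.1 to 56.1 CPM in WT, with replicate 3 lowest, and 10.8 to 13.2 CPM in Xap5 cKO testes. Of the 5 that were tested, 2 were downregulated. Elongating spermatid markers summed to 5.40 to 6.40 CPM in WT and 5.14 to 6.25 CPM in Xap5 cKO testes. Among these, Prm2 and Smcp were at 0 counts in all 6 testis libraries. In sperm, the 10 elongating spermatid markers were the most abundant list, with 51741 to 142388 CPM in a library. Leukocyte markers summed to 767 to 810 CPM in WT and 151 to 506 CPM in Xap5l KO sperm, and markers of epididymal and general epithelium to 5485 to 7569 CPM and 4126 to 5507 CPM.

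The sequences before the starts of Papolb, Ybx3, Boll and Meioc are shown because these genes had 4 of the 5 largest falls in Xap5 cKO testes, and Papolb and Ybx3 were also upregulated in Xap5l KO sperm. Each is the run of 250 bases before the annotated start on the gene's own strand, from RefSeq on GRCm38.p6, 5′ to 3′. For Boll the first of 2 starts is shown. The RefSeq starts of Boll and Meioc do not lie at the ends of the gene spans given below, which came from GENCODE. Ybx2 is not shown, because its windows held 103 and 172 bases of annotated exons before the start. Capitals mark matches, on either strand, to GGGCGGGG or to CNCCTCAG (a motif described for STRA8). GGGCGGGG is a GC box, the kind of site that Sp and KLF factors bind. The study reported it as a sequence common to the Xap5 and Xap5l motifs found in its binding peaks. In Papolb the capitals are the first letters of a CTGAGGAG match that runs across the start. The windows lie at chr5:142530077-142530326, chr6:131388451-131388700, chr1:55363754-55364003 (all on the minus strand) and chr11:102665335-102665584 (plus strand).
Papolb: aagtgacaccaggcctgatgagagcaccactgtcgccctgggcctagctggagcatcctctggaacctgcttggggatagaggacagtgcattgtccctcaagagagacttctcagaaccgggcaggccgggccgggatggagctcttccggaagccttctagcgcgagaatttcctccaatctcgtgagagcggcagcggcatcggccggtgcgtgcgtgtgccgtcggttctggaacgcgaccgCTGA
Ybx3: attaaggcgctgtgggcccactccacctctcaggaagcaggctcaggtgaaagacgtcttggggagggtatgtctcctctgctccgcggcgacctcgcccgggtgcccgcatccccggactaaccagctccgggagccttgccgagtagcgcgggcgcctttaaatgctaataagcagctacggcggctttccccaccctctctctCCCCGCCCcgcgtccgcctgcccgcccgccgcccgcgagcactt
Boll: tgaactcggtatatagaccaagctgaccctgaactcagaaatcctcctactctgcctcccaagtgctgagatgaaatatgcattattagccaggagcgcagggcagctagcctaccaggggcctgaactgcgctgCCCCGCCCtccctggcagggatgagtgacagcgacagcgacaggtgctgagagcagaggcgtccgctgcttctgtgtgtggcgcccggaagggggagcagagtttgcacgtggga
Meioc: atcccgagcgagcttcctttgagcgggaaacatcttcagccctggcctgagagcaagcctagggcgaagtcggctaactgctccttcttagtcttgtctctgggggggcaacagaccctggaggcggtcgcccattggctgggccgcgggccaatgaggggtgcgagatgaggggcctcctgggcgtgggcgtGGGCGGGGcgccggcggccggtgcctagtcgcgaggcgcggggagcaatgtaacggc

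Windows of 300 bases, 250 before to 50 after the start, were used for 9 of the 10 genes, all but Ythdc2 (11 windows, with a second start each for Boll and Ybx2). GGGCGGGG or its reverse complement CCCCGCCC was in 5 of the 11 windows, those of Boll (both starts), Meioc, Ybx3 and Cpeb1, and in 17.6% of 32851 RefSeq windows of this length. In Cpeb1 it occurred 3 times, with the first 2 matches sharing bases. CNCCTCAG was in 3 of the 11, 1 each of Dazl, Ybx2 and Papolb, and in 7.94% of all windows. The cAMP response element TGACGTCA, which reads the same on both strands, was in none of the 11 and in 1.79% of all windows. The GC content of the 11 windows was 56.7% to 78% and the median over all windows 52.7%. A match is a description of these letters only.

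In Xap5 cKO testes at P16, 6 of the 10 genes were downregulated, meaning a change of more than 2-fold whose adjusted p-value was below 0.05, where 10.9% of all 16821 genes tested were. Dazl, Cpeb1 and Cstf2t also passed the adjusted p-value, at falls of less than 2-fold, so that 9 of 10 were lower by that criterion alone, against 28.1% of all genes. Celf1 did not pass. In all 10 genes every Xap5 cKO library lay below every WT library, which held for 32.4% of all genes. The median log2 fold change of the 10 was -1.55 and that of all genes -0.01. None of the 10 was upregulated, where 4.15% of all genes were (25% at the adjusted p-value alone), and none had its cKO libraries above WT, which held for 29.9%. No gene of the 10 rose at an unadjusted p-value under 0.05 or with DESeq2. The pachytene, leptotene and zygotene markers moved the same way as the genes that fell. So did the sum of the 10 spermatogonial markers, at 767 to 789 CPM in WT and 418 to 452 CPM in Xap5 cKO testes. Of these 10 markers, 8 were lower at the adjusted p-value, with 4 downregulated, and 1 was higher. Their part in these results was not tested.

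**Figure D1:**
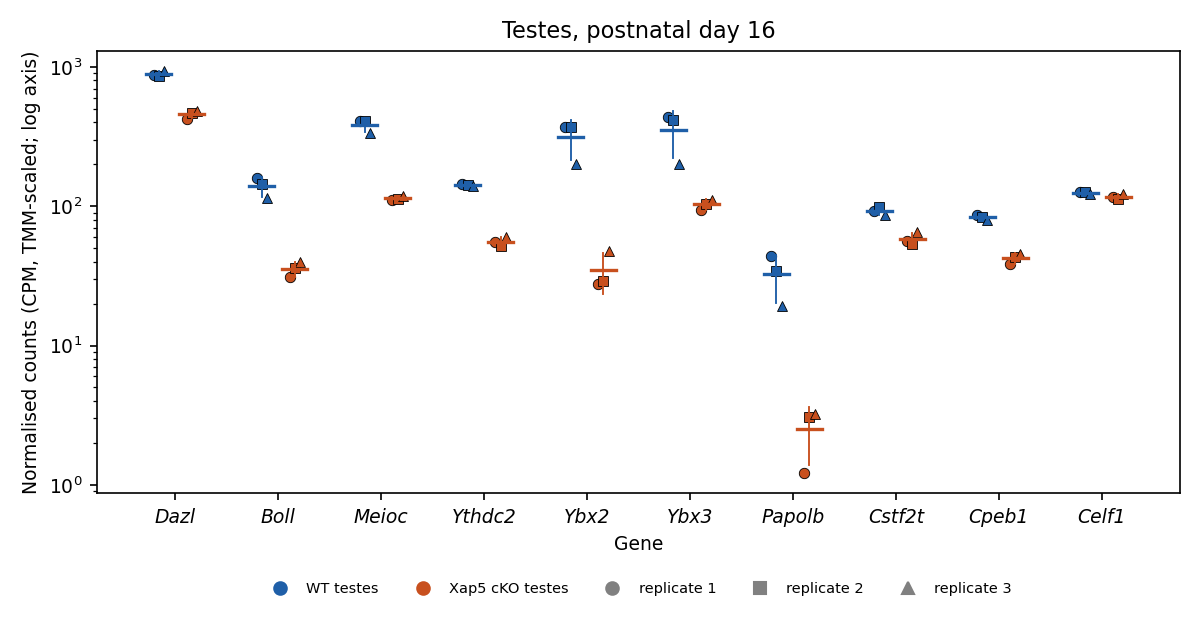
Levels of the 10 genes in P16 testes (CPM, log axis), with 1 point per library, the marker shape giving the replicate, horizontal bars for group means and vertical lines for ± SD of 3 libraries. Xap5 cKO libraries lie below WT libraries for each gene, by the widest margin for Papolb and Ybx2 and the narrowest for Celf1.

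Dazl (chromosome 17 from 50279395 to 50293636, GRCm38) encodes a germ-cell member of the DAZ family, which promotes translation of its target mRNAs. It had 878, 858 and 937 CPM in WT replicates 1, 2 and 3 and 423, 468 and 482 CPM in the Xap5 cKO libraries. The WT libraries were close to each other and the cKO libraries all lay well below them. Its log2 fold change was -0.96 (SE 0.0639, adjusted p = 1.27e-05, edgeR's quasi-likelihood test, adjusted over all genes by the Benjamini-Hochberg method), or 51.3% of WT. Without Xap5 cKO replicate 3 it was just past the 2-fold threshold. Boll (chromosome 1 from 55248658 to 55363469), whose protein is the ancestral DAZ family member and acts in later spermatocytes and spermatids, had 160, 144 and 115 CPM in WT, against 30.8, 36.2 and 39.6 CPM in Xap5 cKO testes. Its groups were well apart, and its log2 fold change was -1.97 (SE 0.135, adjusted p = 1.42e-05), or 25.5% of WT, and -2.09 without WT replicate 3. The log2 ratio of Boll to Dazl, each in CPM per kb of annotated exons, was -2.57 ± 0.299 in WT and -3.57 ± 0.0864 in Xap5 cKO testes (SD, n = 3, exact permutation test, two-sided, p = 0.1, adjusted 0.15 over 12 ratios). With 3 libraries against 3, 0.1 is the smallest p-value this test allows.

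Meioc (chromosome 11 from 102663716 to 102682237) and Ythdc2 (chromosome 18 from 44827746 to 44889724) encode partners: MEIOC stabilises meiotic prophase, and YTHDC2 is an RNA helicase with a YTH domain that binds N6-methyladenosine. Meioc had 408, 407 and 337 CPM in WT, against 111, 113 and 119 CPM in Xap5 cKO testes. WT replicate 3 was its lowest WT library, and it was still far above the cKO libraries. Meioc had a log2 fold change of -1.75 (SE 0.082, adjusted p = 8.8e-06), or 29.8% of WT, and -1.83 without WT replicate 3. Ythdc2 had 145, 142 and 141 CPM in WT, against 55.5, 51.5 and 60.1 CPM in Xap5 cKO testes, with little spread in either group. It had a log2 fold change of -1.36 (SE 0.074, adjusted p = 8.8e-06), or 39% of WT. Within a library, the log2 ratio of Meioc to Ythdc2 was 2.37 ± 0.14 in WT and 1.99 ± 0.086 in Xap5 cKO testes (SD, n = 3, exact permutation p = 0.1, adjusted 0.15).

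Ybx2 (chromosome 11 from 69935796 to 69941605) encodes MSY2, the germ-cell Y-box protein that coats and stabilises stored mRNAs. It had 373, 373 and 200.04 CPM in WT, against 27.7, 28.9 and 47.5 CPM in Xap5 cKO testes. WT replicate 3 lay well below the other WT libraries and above every cKO library. Ybx2 had a log2 fold change of -3.18 (SE 0.282, adjusted p = 3.51e-05), 9.08-fold lower than WT. Without WT replicate 3 it was -3.43. A separate entry of the testis table named Ybx2-2, whose relation to Ybx2 was not given in the sources used here, had a log2 fold change of -3.30 (SE 0.285, adjusted p = 3.15e-05). Ybx3 (chromosome 6 from 131364855 to 131388476), whose protein MSY4 is a second Y-box protein of germ cells, had 440.2, 413 and 202 CPM in WT, against 93.4, 104 and 111 CPM in Xap5 cKO testes. WT replicate 3 was again low, at less than the other WT libraries but above all cKO libraries. Ybx3 had a log2 fold change of -1.77 (SE 0.247, adjusted p = 0.000337), or 29.3% of WT, and -2.05 without WT replicate 3. Ybx1, the widely expressed relative of both, had a log2 fold change of -0.74 (SE 0.106, adjusted p = 0.000385). For the entry named Ybx2 alone, the log2 ratio of Ybx2 to Ybx3 per kb was 0.57 ± 0.113 in WT and -0.91 ± 0.338 in Xap5 cKO testes (SD, n = 3, exact permutation p = 0.1, adjusted 0.15). It leaves out Ybx2-2, which had 22.4, 22.2 and 36.5 CPM in Xap5 cKO testes, so its sign there may differ with both entries counted. Sperm had no such separate entry, so the ratios of testes and sperm differ in basis.

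Papolb (chromosome 5 from 142525838 to 142530076) had the largest fall of the 10 genes. It encodes the testis poly(A) polymerase TPAP, which lengthens poly(A) tails in the cytoplasm of spermatids, and it is a gene of 1 exon that lies inside the span of Radil on the same strand. Papolb had 43.6, 34.4 and 19.2 CPM in WT, against 1.21, 3.05 and 3.25 CPM in Xap5 cKO testes. The WT libraries spread by more than those of most other members, with replicate 3 lowest, and every cKO library was far below them. Its log2 fold change was -3.69 (SE 0.403, adjusted p = 9.02e-05), 12.9-fold lower than WT, and -3.96 without WT replicate 3. Papola, the poly(A) polymerase found in all tissues and the parent gene of Papolb, had a log2 fold change of -0.09 (SE 0.0511, adjusted p = 0.162, 95% interval -0.21 to 0.02). Per kb, the log2 ratio of Papolb to Papola was -2.99 ± 0.613 in WT and -6.64 ± 0.822 in Xap5 cKO testes (SD, n = 3, exact permutation p = 0.1, adjusted 0.15).

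Cstf2t (chromosome 19 from 31082837 to 31087069) encodes tau-CstF-64, a germ-cell form of the 64 kDa cleavage stimulation factor subunit. It too has 1 exon, and it lies inside the span of Prkg1 on the other strand. Cstf2t had 93.1, 98.6 and 85.9 CPM in WT, against 56.5, 53.9 and 65.2 CPM in Xap5 cKO testes. All cKO libraries were lower, by a margin wider than the spread in either group. Its log2 fold change was -0.66 (SE 0.0931, adjusted p = 0.000356), or 63.3% of WT. Cstf2, the X-linked parent gene, had a log2 fold change of -0.06 (SE 0.0618, adjusted p = 0.418, 95% interval -0.20 to 0.08). The log2 ratio of Cstf2t to Cstf2 per kb was 0.80 ± 0.169 in WT and 0.20 ± 0.146 in Xap5 cKO testes (SD, n = 3, exact permutation p = 0.1, adjusted 0.15). Papolb and Cstf2t resemble their parent genes in sequence, and how reads that map to several genes were treated was not given, so part of their counts may be shared with the parents.

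Cpeb1 (chromosome 7 from 81347026 to 81455465) encodes a protein that binds a U-rich element near the poly(A) signal and turns stored mRNAs on or off. It had 86, 84.3 and 79.2 CPM in WT, against 38.3, 42.9 and 45.6 CPM in Xap5 cKO testes. The groups were tight and apart, at a level close to the 2-fold threshold. Its log2 fold change was -0.98 (SE 0.0883, adjusted p = 3.8e-05), or 50.8% of WT, and it passed the threshold without WT replicate 3 (-1.01) and on omission of Xap5 cKO replicate 3 (-1.04). Cpeb2, another gene of the CPEB family, was also downregulated, with a log2 fold change of -1.10 (SE 0.0809, adjusted p = 1.78e-05). The log2 ratio of Cpeb1 to Cpeb2 per kb was -0.03 ± 0.0843 in WT and 0.09 ± 0.108 in Xap5 cKO testes (SD, n = 3, exact permutation p = 0.2, adjusted 0.24).

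Celf1 (chromosome 2 from 90940382 to 91019497), which is expressed in somatic cells as well as germ cells, had 127, 127 and 123 CPM in WT, against 116, 112 and 122 CPM in Xap5 cKO testes. The highest cKO library nearly reached the lowest WT library. Celf1 had a log2 fold change of -0.10 (SE 0.0603, adjusted p = 0.184) with a 95% interval from -0.24 to 0.03. The separate entry Celf1-2 had a log2 fold change of -0.16 (SE 0.0672, adjusted p = 0.0691). With both entries summed the log2 fold change was -0.14 (adjusted p = 0.0439), past the adjusted p-value at a change of small size.

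Levels per kb of exons leave out the separate entries Ybx2-2 and Celf1-2, which had means of 266 and 156 CPM in WT testes. If these belong to Ybx2 and Celf1, the places of both genes, and the first place of Dazl in WT, could change. On this basis Dazl was the most abundant of the 10 genes in WT testes, with 233 ± 10.8 CPM per kb (SD, n = 3). Ybx2, Ybx3 and Meioc followed with means of 167, 114 and 83.1 CPM per kb, and neighbours in this order overlapped in their ranges. Boll stood apart at 39.7 CPM per kb. Cstf2t and Cpeb1 overlapped at 21.9 and 19.8, Ythdc2 had 16.1 and Celf1 14.8, and Papolb was lowest at 7.65 CPM per kb. In Xap5 cKO testes Dazl remained first at 120 ± 8.04 CPM per kb (SD, n = 3) and Papolb last at 0.59, while Ybx2 had 18.4 CPM per kb, its range overlapping those of its neighbours Meioc at 24.8 and Cstf2t at 13.8.

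In Xap5l KO sperm at P56, 2 of the 10 genes, Papolb and Ybx3, were upregulated, where 7.59% of the 20945 genes tested were. The same 2 passed at the adjusted p-value alone, against 9.02% of all genes. None was downregulated, where 1.27% of all genes were (3.07% at the adjusted p-value alone), and none of the 10 fell at an unadjusted p-value under 0.05 together with a fold change above 2, or with DESeq2. In 3 of 10 genes, Papolb, Ybx3 and Boll, the KO libraries were all higher than the WT libraries, which held for 19.2% of all genes. No gene of the 10 had every Xap5l KO library below WT, which held for 19.2% of all genes too. The median log2 fold change of the 10 was 0.09 and that of all genes -0.08. Markers of round spermatids and pachytene spermatocytes moved with the genes that rose, though not they alone. The 10 round spermatid markers summed to 526 to 850 CPM in WT and 1047 to 1301 CPM in Xap5l KO sperm with 8 of 10 upregulated, and the 12 pachytene markers to 1446 to 2472 CPM and 2772 to 3507 CPM with 5 of 12 upregulated. The 10 elongating spermatid markers overlapped in their sums, at 58160 to 142388 CPM in WT and 51741 to 92905 CPM in Xap5l KO sperm, and 1 of 10 was upregulated. Their median log2 fold change was 0.60, with every KO library above WT for 3 of 10 and below WT for 0. The sum of peritubular myoid markers was also higher, at 69.1 to 96.3 CPM in WT and 126 to 155 CPM in Xap5l KO sperm. Spermatogonial markers summed to 120.8 to 200.4 CPM and 173 to 386 CPM, with overlap. No gene tested of these lists was upregulated. Erythroid markers summed to 4506 to 22836 CPM in WT and 1643 to 5548 CPM in Xap5l KO sperm, also with overlap. Leydig and Sertoli cell sums had lower medians in Xap5l KO sperm. The part of the marker lists in these results was not tested. Mitochondrial genes, taken only as those whose names start with mt-, took 19.3% to 24% of counts in WT libraries. The shares were 27.4%, 18.6% and 10.5% in replicates 1, 2 and 3 of the KO.

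**Figure D2:**
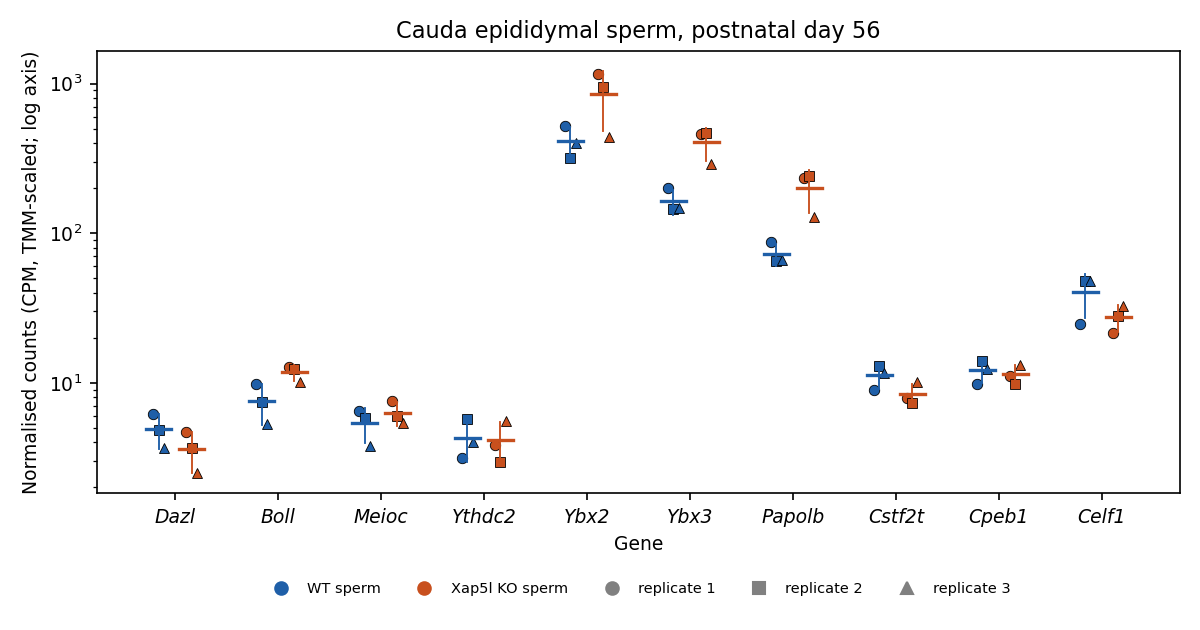
Levels of the 10 genes in P56 sperm (CPM, log axis), with 1 point per library, the marker shape giving the replicate, horizontal bars for group means and vertical lines for ± SD of 3 libraries. Xap5l KO libraries lie above all WT libraries for Papolb, Ybx3 and Boll, and for Ybx2 the third Xap5l KO library lies among the WT libraries.

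Papolb had 87, 64.7 and 65.9 CPM in WT sperm, against 234, 239 and 127 CPM in Xap5l KO sperm. Replicate 3 was the lowest KO library and still lay above the highest WT library. Papolb had a log2 fold change of 1.46 (SE 0.288, adjusted p = 0.0182), 2.76-fold higher than WT. Papola had a log2 fold change of -0.28 (SE 0.281, adjusted p = 0.501), and the log2 ratio of Papolb to Papola per kb was 1.53 ± 0.807 in WT and 3.17 ± 0.495 in Xap5l KO sperm (SD, n = 3, exact permutation p = 0.1, adjusted 0.15). Ybx3 had 201, 145 and 147 CPM in WT, against 462, 468 and 290.3 CPM in Xap5l KO sperm. The KO libraries were again all above WT, replicate 3 by the least. Ybx3 had a log2 fold change of 1.31 (SE 0.279, adjusted p = 0.0213), 2.48-fold higher than WT. Both calls were lost on leaving out any one of WT replicates 2 and 3 and Xap5l KO replicates 1 and 2. In these 4 cases the log2 fold changes were 1.31 to 1.39 for Papolb (adjusted p from 0.0585 to 0.0982) and 1.20 to 1.23 for Ybx3 (adjusted p from 0.0704 to 0.117).

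Ybx2 had 519, 319 and 400.5 CPM in WT, against 1155, 949 and 443 CPM in Xap5l KO sperm. Xap5l KO replicates 1 and 2 were far above WT, and Xap5l KO replicate 3 was below WT replicate 1. The log2 fold change of Ybx2 was 1.04 (SE 0.376, adjusted p = 0.0901), with a 95% interval from 0.20 to 1.88. With DESeq2 it passed the adjusted p-value (log2 fold change 1.07, adjusted p = 0.0127). Leaving out Xap5l KO replicate 3 had the same effect (1.43, adjusted p = 0.0112). Per kb the log2 ratio of Ybx2 to Ybx3 was 2.03 ± 0.159 in WT and 1.69 ± 0.358 in Xap5l KO sperm (SD, n = 3, exact permutation p = 0.2, adjusted 0.24). Ybx1 had a log2 fold change of 0.09 (SE 0.355, adjusted p = 0.881).

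Boll had 9.83, 7.39 and 5.33 CPM in WT, against 12.7, 12.4 and 10.1 CPM in Xap5l KO sperm, without overlap and with the third KO library next to the first WT library. Its log2 fold change was 0.64 (SE 0.254, adjusted p = 0.113), and without WT replicate 1 it was 0.87 (adjusted p = 0.0486). Dazl had 6.22, 4.85 and 3.67 CPM in WT, against 4.68, 3.65 and 2.49 CPM in Xap5l KO sperm. These groups overlapped, and the log2 fold change of Dazl was -0.45 (SE 0.306, adjusted p = 0.32). Per kb the log2 ratio of Boll to Dazl was 0.72 ± 0.0609 in WT and 1.86 ± 0.288 in Xap5l KO sperm (SD, n = 3, exact permutation p = 0.1, adjusted 0.15).

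Meioc had 6.43, 5.85 and 3.80 CPM in WT, against 7.60, 5.98 and 5.37 CPM in Xap5l KO sperm, with a log2 fold change of 0.24 (SE 0.263, adjusted p = 0.546). Ythdc2 had 3.13, 5.75 and 4.01 CPM in WT, against 3.85, 2.96 and 5.56 CPM in Xap5l KO sperm, with a log2 fold change of -0.06 (SE 0.318, adjusted p = 0.909) with a 95% interval from -0.77 to 0.65. The libraries of both genes were mixed between genotypes. The log2 ratio of Meioc to Ythdc2 per kb was 1.27 ± 0.62 in WT and 1.59 ± 0.604 in Xap5l KO sperm (SD, n = 3, exact permutation p = 0.8, adjusted 0.8).

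Celf1 had 24.9, 47.8 and 47.9 CPM in WT, against 21.5, 28.1 and 32.4 CPM in Xap5l KO sperm. WT replicate 1 lay among the KO libraries, and the other WT libraries were above all of them. Its log2 fold change was -0.55 (SE 0.284, adjusted p = 0.198), and -0.82 without WT replicate 1 (adjusted p = 0.0474). Cstf2t had 8.95, 13 and 11.7 CPM in WT, against 7.91, 7.37 and 10.1 CPM in Xap5l KO sperm, with the third KO library inside the WT range. It had a log2 fold change of -0.41 (SE 0.226, adjusted p = 0.229), and its log2 ratio to Cstf2 per kb was 0.04 ± 0.171 in WT and -0.45 ± 0.514 in Xap5l KO sperm (SD, n = 3, exact permutation p = 0.3, adjusted 0.327). Cpeb1 had 9.89, 14 and 12.4 CPM in WT, against 11.1, 9.82 and 13.2 CPM in Xap5l KO sperm, with a log2 fold change of -0.09 (SE 0.218, adjusted p = 0.8) with overlapping groups. Cpeb2 was upregulated, with a log2 fold change of 1.17 (SE 0.231, adjusted p = 0.0183), and the log2 ratio of Cpeb1 to Cpeb2 per kb was -1.38 ± 0.124 in WT and -2.61 ± 0.537 in Xap5l KO sperm (SD, n = 3, exact permutation p = 0.1, adjusted 0.15).

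**Figure D3:**
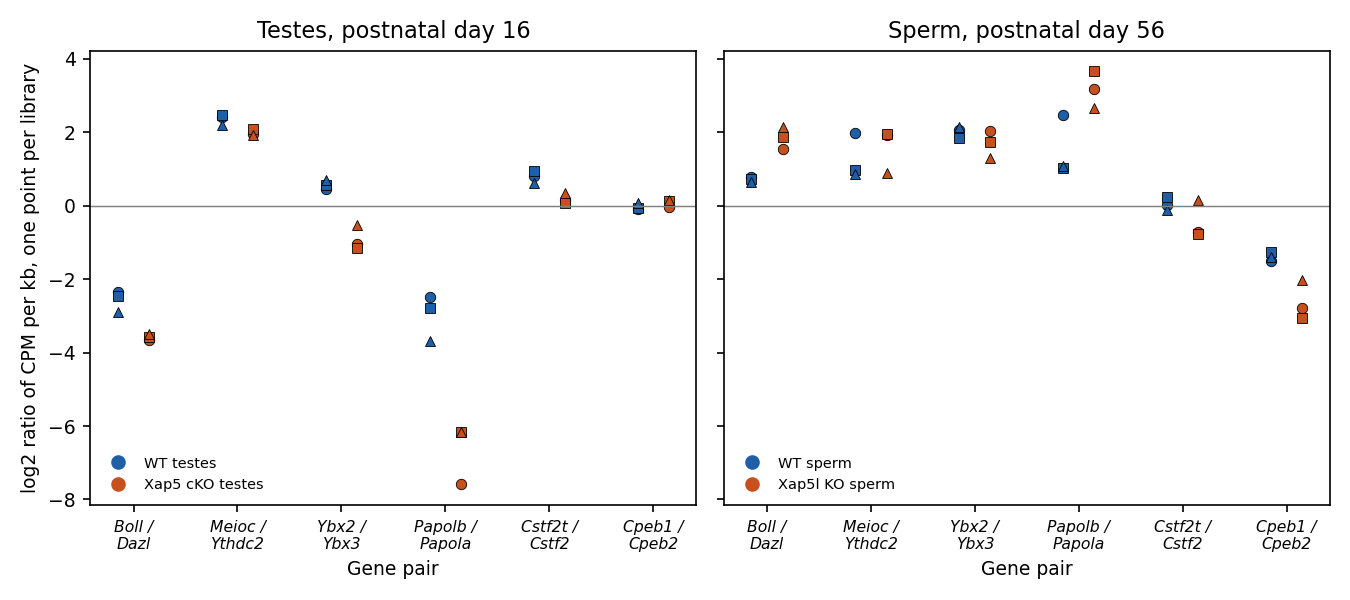
Log2 ratios of CPM per kb within each library (vertical axis) for 6 pairs of related or partner genes, in testes (left) and sperm (right), with 1 point per library and circles, squares and triangles for replicates 1, 2 and 3. The Papolb to Papola and Boll to Dazl ratios separate by genotype in both tissues, lower in Xap5 cKO testes and higher in Xap5l KO sperm. The Meioc to Ythdc2 ratio overlaps in sperm.

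Ybx2 was the most abundant of the 10 genes in sperm per kb, with 219 ± 53.3 CPM per kb in WT and 450.5 ± 195 in Xap5l KO sperm (SD, n = 3). Ybx3 and Papolb came next with 53.3 and 17.1 CPM per kb in WT and 132 and 47.2 in Xap5l KO sperm, each apart from its neighbours. The other 7 genes had mean levels of 0.48 to 4.76 CPM per kb in WT and 0.46 to 3.34 in Xap5l KO sperm. In the WT order Celf1, Cpeb1, Cstf2t, Boll, Dazl and Meioc, each gene overlapped its neighbours, and Ythdc2 was lowest in both genotypes, apart from the next gene. Dazl, which came first of the 10 genes in testes when Ybx2-2 was left out, had 1.29 ± 0.334 CPM per kb in WT sperm (SD, n = 3). The sperm counts held genes named with mt- and the testis counts held none, so CPM of the tissues differ in basis.

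Set side by side, Papolb had log2 fold changes of -3.69 in Xap5 cKO testes and 1.46 in Xap5l KO sperm, Ybx2 of -3.18 and 1.04, Ybx3 of -1.77 and 1.31, and Boll of -1.97 and 0.64. The comparisons share no libraries, and they differ in the deleted gene, the tissue and the age, which cannot be told apart. Papolb and Ybx3 were called in both comparisons. Meioc had -1.75 and 0.24, and Ythdc2 -1.36 and -0.06, where the second value is within its standard error. Dazl, Cpeb1, Cstf2t and Celf1 had negative values in both, with no sperm value past the adjusted p-value.

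**Figure D4:**
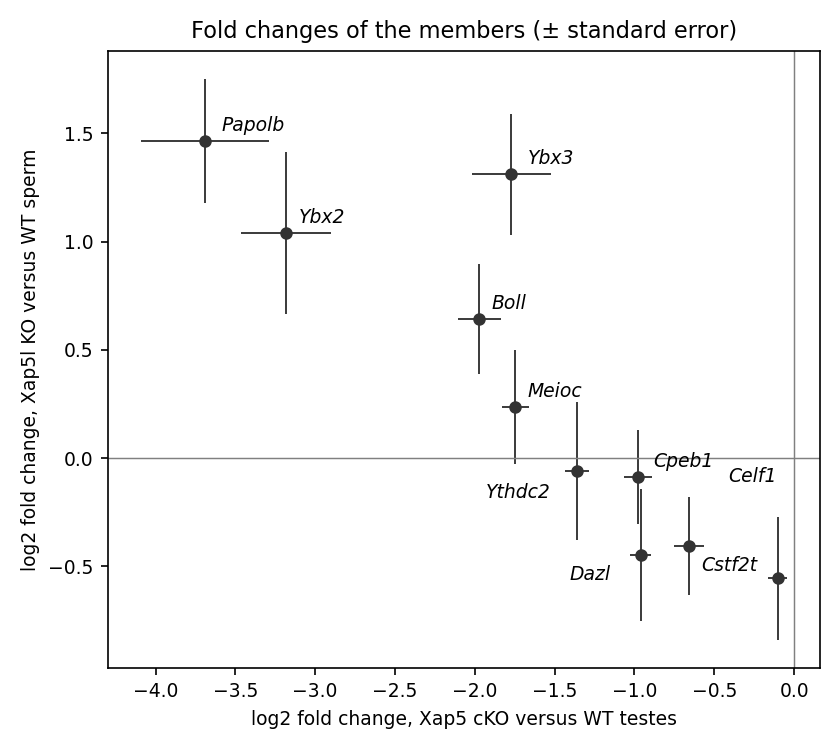
Log2 fold changes of the 10 genes in Xap5 cKO versus WT testes (horizontal axis) and in Xap5l KO versus WT sperm (vertical axis), with lines for ± SE from edgeR. Papolb, Ybx2, Ybx3, Boll and Meioc lie at the upper left, lower in cKO testes and with positive values in KO sperm (0.24 for Meioc), and Celf1 lies nearest to 0 on the testis axis.

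A wider list of 107 genes for RNA-binding, mRNA storage and 3′ end formation gave the surroundings of the 10. In testes 106 were tested, of which 20 were downregulated and 1 upregulated, where 10.9% and 4.15% of all genes were. At the adjusted p-value alone 58 were lower and 15 higher, against 28.1% and 25% of all genes. Their median log2 fold change was -0.30 and that of all genes -0.01. Of 21 DAZ and PUM partners and early germ-cell RNA-binding genes 5 were downregulated, of 18 splicing and stability factors 6, of 23 storage and repression genes 4, and of 17 CPEB and cytoplasmic poly(A) genes 5. None of 9 genes for writers, readers and erasers of N6-methyladenosine and none of 18 nuclear cleavage and polyadenylation genes was downregulated. At the adjusted p-value alone, 3 of the 9 were lower and 3 higher, and 11 of the 18 were lower and 1 higher. The 5 largest falls were those of Pabpc2, Pabpc6, Btg4, Ddx25 and Celf5. Pabpc2, a testis poly(A)-binding protein gene, had 2163, 1619 and 532 counts across WT testes, against 5, 2 and 0 across Xap5 cKO testes, while Pabpc6, a gene of the same family, had 64.7, 55.9 and 22.4 CPM in WT, against 4.76, 4.34 and 4.65 CPM in Xap5 cKO testes, and a log2 fold change of -3.38 (SE 0.356, adjusted p = 7.69e-05). Both resemble Pabpc1, which was itself downregulated (-1.17, SE 0.09, adjusted p = 2.2e-05), and reads may be shared among them. Btg4, an adaptor of the deadenylase complex, had a log2 fold change of -3.35 (SE 0.542, adjusted p = 0.000781) at 3.43 ± 0.935 CPM in WT (SD, n = 3). Ddx25, which encodes a testis RNA helicase needed for translation in spermatids, had 134, 132 and 73.8 CPM in WT, against 17.8, 17.2 and 17.3 CPM in Xap5 cKO testes, and a log2 fold change of -2.70 (SE 0.211, adjusted p = 2.29e-05), and Celf5 of -2.60 (SE 0.389, adjusted p = 0.000498). WT replicate 3 was the lowest WT library for Pabpc2, Pabpc6 and Ddx25. The gene upregulated, Samd4, a translational repressor of the Smaug family, had a log2 fold change of 1.06 (SE 0.255, adjusted p = 0.00691), and this call was lost on omitting WT replicate 1 or 2 or the third cKO replicate.

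In sperm 102 of the 107 were tested, 7 were upregulated and none downregulated, where 7.59% and 1.27% of all genes were, so that the share upregulated was near that of all genes. Their median log2 fold change was -0.11 and that of all genes -0.08. At an unadjusted p-value under 0.05 with a fold change above 2, 1 gene was lower, and DESeq2 also called 1. The 5 largest rises were those of Igf2bp1 (2.42, SE 0.336, adjusted p = 0.0118), Celf6 (2.11, SE 0.27, adjusted p = 0.0118), Pabpc2 (1.5, SE 0.323, adjusted p = 0.0221), Adad1 (1.46, SE 0.237, adjusted p = 0.0131) and Rbmxl2 (1.36, SE 0.238, adjusted p = 0.0148). Celf6 belongs to the CELF family of splicing regulators, Adad1 encodes a testis RNA-binding protein and Rbmxl2 a testis splicing regulator. Pabpc2 had 103, 82.2 and 78 CPM in WT, against 297, 311 and 137 CPM in Xap5l KO sperm. Its KO libraries were all above WT, with replicate 3 lowest. Igf2bp1, which encodes an RNA-binding protein of fetal cells, was low in both groups, at 0.42 ± 0.0805 CPM in WT and 2.27 ± 0.37 in Xap5l KO sperm (SD, n = 3). None of the 107 was upregulated on leaving out WT replicate 2 or 3 or the second KO replicate.

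By the distance between log2 CPM patterns over 6 libraries, each centred on its mean, the genes most like Papolb among the 13087 compared in testes were Ube2u (distance 0.315), Gm3417 (0.482) and Ankrd36 (0.534). Their log2 fold changes were -3.84, -3.83 and -3.37. In sperm, among 11591 genes, they were Kcnu1 (distance 0.122), 1700067P10Rik (0.13) and Ppm1d (0.143), with log2 fold changes of 1.55, 1.49 and 1.38.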

How the data were processed

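RNA was measured in 12 libraries. The authors isolated poly(A) RNA, sequenced it as paired-end reads of 150 bp, trimmed it with Trimmomatic 0.36, mapped it to GRCm38 with HISAT2 2.1.0 and deposited counts per gene, whole numbers without normalization, in 1 table per tissue. The counting tool, strand setting and treatment of reads mapping to several genes were not given in the sources used here, which matters for intronless copies such as Papolb and Cstf2t. The library kit does not mark strand in its standard form. The authors' expression measure was not used, and their test, DESeq2 1.12.4, was run only as an alternative and in a later version.

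Groups came from the sample labels. Each tissue was analysed alone in R 4.3.3 with edgeR 4.0.16: filterByExpr, TMM, and the quasi-likelihood test with genotype as the only term and Benjamini-Hochberg adjustment over all genes tested. Calls required an adjusted p under 0.05 and a fold change above 2. SE is that of the log2 fold change. DESeq2 1.42.0 was an alternative, beside other filters, RLE or library-size scaling, a replicate block, other thresholds, summed entries, leaving out mitochondrial and the 10 most abundant genes, and leaving out each library. Run on simulated data with 4-fold changes, edgeR called 88.4% of 189 changed genes in the sperm design and 93.5% of 199 in the testis design. The simulated libraries of a tissue shared a mean profile and had no differences in composition or single deviating libraries. These shares therefore do not give the power of the real comparisons. Replicate libraries differed by more than sampling noise, with a chi-square per degree of freedom of at least 10.8. Exon lengths and positions came from GENCODE M21. Genes named were the 10 members, the targeted genes, up to 5 called genes of the wider list in each direction with the largest change, the 3 genes most like the member with the largest change (at least 5 CPM in either genotype, pseudocount 0.5 CPM), and, chosen after their values were seen, relatives of the members. Members and lists were chosen with earlier results of these data known. The figures were drawn with matplotlib 3.10.9.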

Additional observations from a re-analysis of the deposited data

How the results depend on the processing

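In testes the 6 downregulated members stayed 6 under every alternative with the fold threshold and all libraries kept, were 9 without the fold threshold, and were 6 to 8 when a library was left out. The 7 of them without WT replicate 3 included Cpeb1. Over all genes, 698 up and 1837 down became 4202 and 4734 without the fold threshold, and the wider list went from 1 up and 20 down to 15 and 58. Leaving out a library gave 0 to 1 up in the wider list, with 0 on omitting WT replicate 1 or 2 or the third cKO replicate. In sperm the 2 upregulated members became 3 with DESeq2 and with unadjusted p-values and 0 at an adjusted p under 0.01, where the counts of all genes (from 1589 up and 267 down) and of the wider list (from 7 up) were also 0. Leaving out a library gave 0 to 3 members up, 1 to 2402 genes up, 1 to 443 genes down, and 0 to 11 up and 0 to 2 down in the wider list. The lowest counts came on omitting WT replicate 2 or 3 or the second KO replicate. Omitting the first KO replicate gave 483 and 71 genes and 0 members. The cause was not tested. Unadjusted p-values gave 2385 genes up and 605 down. Genes down were 149 with library-size scaling, 643 without the fold threshold and 164 without the mitochondrial and 10 most abundant genes. The wider list had 1 gene down with at least 10 counts in every sample, with DESeq2 and with unadjusted p-values, and 3 without the fold threshold. Small sperm fold changes changed sign: Ythdc2 ranged from -0.26 to 0.20 and Cpeb1 from -0.22 to 0.022 when a library was left out, and Ythdc2 was 0.022 without the abundant genes. With a replicate block, the members' counts were again 6 and 2, and sperm had 1147 genes up and 147 down. Same-numbered libraries deviated together with correlations from -0.08 to 0.15 in sperm and -0.01 to 0.01 in testes, and not every library correlated best with its own number. In sperm, replicate 1 of both genotypes had the lowest TMM factors, 0.821 in WT and 0.808 in Xap5l KO. Whether same-numbered libraries were handled together was not tested.

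Depth did not limit the testis members, the lowest having 39 counts in a library. In sperm, Dazl, Boll, Meioc and Ythdc2 had 103 to 687 counts in a library. Each group held 3 libraries, and the testes and the sperm also held RNA of other cells.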
